A study of Mus musculus with 6 samples.

Results

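The genes described here are 10 genes of neutral lipid storage, taken by symbol from the 47069 genes of the count table. They comprise the lipid droplet coat genes Plin2, Plin3, Plin4 and Hilpda, the triglyceride synthesis genes Dgat1 and Dgat2, and the lipolysis genes Pnpla2, Abhd5, Lipe and Mgll. All 10 passed the filter on low counts and were among the 14165 genes tested. RNA was sequenced from muscle stem cells of mdx mice, which lack dystrophin, grown as myoblasts in medium with serum and FGF2. The cells received PSB-KD107, a synthetic agonist of the receptor Gpr18, at 10 μM, or vehicle, with 3 libraries per group. The sample records give a treatment of 2 days and the study's methods give 16 h, and some records call the control cells untreated and the treated cells PSB-KD-1. The methods state that the myoblasts came from 3 mice, but no record ties a library to a mouse, so that p-values measure the spread between these libraries. The methods give male C57BL/10 mdx mice of 10 weeks for the injected animals of the study and do not state the age or sex of the mice that gave these cells.

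Lipid droplets are stores of triglyceride and sterol ester enclosed in a phospholipid monolayer with coat proteins. Triglyceride is completed when a DGAT enzyme adds a fatty acid to diacylglycerol. It is broken down in sequence by adipose triglyceride lipase (Pnpla2), hormone-sensitive lipase (Lipe) and monoacylglycerol lipase (Mgll), which release a fatty acid each. Perilipins on the droplet surface limit the access of the lipases, and in muscle cells droplets serve as a fuel store close to mitochondria.

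The table's libraries are numbered 1, 2 and 4 in each group, and these numbers are used below. Library totals lay between 30917613 and 48756794 counts, and 3 counts corresponded to between 0.0596 and 0.0962 CPM, a floor that covers counting error only. CPM are counts scaled to library size, here with TMM factors between 0.974 and 1.03. Myoblast markers were present in every library, with Des at 2784 to 3932 CPM and Pax7, the stem cell factor, at 49.9 to 68.8 CPM with vehicle and 26.8 to 35.1 CPM with PSB-KD107. Of the 6 myoblast markers, only Pax7 had an unadjusted p-value under 0.05. The means of Myf5 and Des were higher with PSB-KD107 and those of Myod1, Cdh15 and Itga7 lower, each with overlapping groups. The 6 summed to between 5835 and 6340 CPM with vehicle and between 5767 and 5957 CPM with PSB-KD107. Markers of differentiating muscle were also high, with embryonic myosin (Myh3) at 11842 to 18255 CPM. The 4 differentiation markers summed to between 21020 and 21940 CPM with vehicle and between 15342 and 17714 CPM with PSB-KD107. This sum was mostly Myh3. Of the 4, 3 (Myog, Mymk and Myh3) had an unadjusted p-value under 0.05 and lower values with PSB-KD107. The fourth, Ckm, had 287, 340 and 425 CPM in vehicle libraries 1, 2 and 4. In the PSB-KD107 libraries Ckm had 222, 281 and 818 CPM, so its groups overlapped and its mean was higher. The part of these marker differences in the values below was not tested, and in bulk RNA fewer cells of a type and less RNA per cell cannot be told apart. Of 6 adipocyte markers, 4 had at most 3 counts in any library, and Plin1, the perilipin of fat cells, had 0 counts in all 6 libraries. The 6 summed to between 0.931 and 1.95 CPM with vehicle and between 0.138 and 2.57 CPM with PSB-KD107. Both libraries numbered 1 stood apart from the other libraries in Myf5, a myoblast factor, with 3.57 and 4.23 CPM against 18.6 to 40.9 CPM. The other myoblast markers were mixed in these libraries. Myod1 and Itga7 were lowest of their group in both, whereas Des was highest, at 3652 and 3932 CPM. Pax7 was highest and Cdh15 lowest of the vehicle group in library 1, and both were intermediate in PSB-KD107 library 1. PSB-KD107 library 4 stood apart in Ly6a, a marker of fibro-adipogenic cells, with 8.36 CPM against at most 1.29 CPM. The other markers of these cells did not follow Ly6a together. In that library Dcn was lowest, at 0.0275 CPM against 0.516 to 1.25 CPM in the others. Pdgfra had 1.46 CPM there against 0.609 to 1.17 CPM, and Lum had 0 counts in every library.

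The question was which genes of droplet coating, triglyceride synthesis and lipolysis differed in myoblasts given the Gpr18 agonist. Plin2, Dgat2 and Abhd5 were higher in each PSB-KD107 library than in any vehicle library, by 2.79, 1.56 and 1.53 times in mean CPM. Dgat1 and Lipe had similar means in both groups, Plin4 and Mgll differed more between libraries of a group than between the groups, and Plin3, Hilpda and Pnpla2 had higher means with PSB-KD107 by 1.42, 1.24 and 1.16 times. By edgeR's quasi-likelihood test with Benjamini-Hochberg adjustment over all genes, 0 of the 10 passed an adjusted p-value of 0.05, as did 0% of all genes tested. Before adjustment, 4 of the 10 had a p-value under 0.05 and higher values (Plin2, Abhd5, Dgat2 and Plin3) and 0 had lower values, where 6.47% of all genes tested had such a p-value with higher values and 2.93% with lower values. With DESeq2, the package of the study's methods, 3 of the 10 passed an adjusted p-value of 0.05, all higher (Plin2, Dgat2 and Abhd5), where 2.46% of all genes tested passed with higher values and 0.939% with lower values. The groups did not overlap for 4 of the 10, all higher, against 9.2% of all genes tested that lay apart with higher values and 6.59% with lower values, and the fourth, Hilpda, was barely separated, with its highest vehicle library at 8.53 CPM and its lowest treated library at 8.56 CPM. The median log2 fold change was 0.41 over the 10 genes and 0.00 over all genes tested. The 10 genes were chosen with earlier results of these data known, so these counts and this median are descriptions only. An exact permutation test (two-sided) of 1 gene in this design gives no p-value below 0.1.

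**Figure D1:**
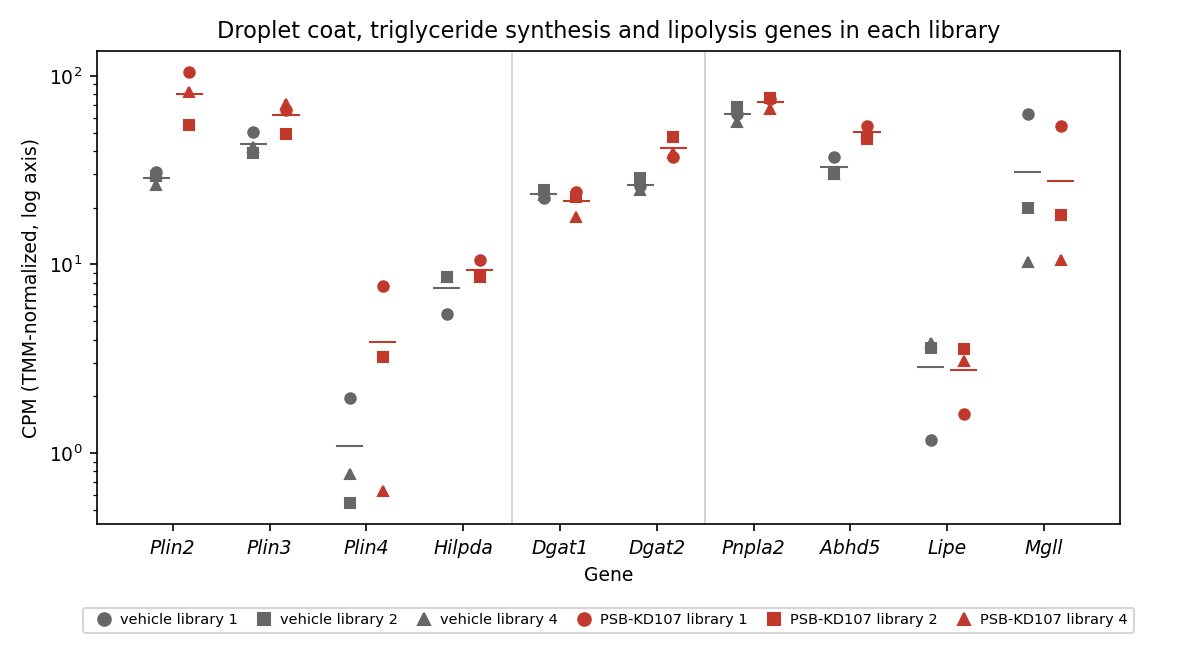
CPM of the 10 genes in each library on a log axis, with vehicle in gray and PSB-KD107 in red, symbols for the library numbers 1, 2 and 4, and lines at the group means. Plin2, Dgat2 and Abhd5 are separated between the groups, whereas both libraries numbered 1 are the highest of their group for Mgll and the lowest for Lipe.

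Of the promoters, RefSeq (GRCm38.p6) held 11 windows for 8 of the 10 genes, with none for Dgat1 and Dgat2. The 250 bases before the RefSeq start of Plin2 and Abhd5 are shown because these genes were separated between the groups in these data and each window holds the letters AGGTCA, a core motif bound by nuclear receptors such as PPAR and RXR, on the strand opposite to the gene. These RefSeq starts differ slightly from the GENCODE gene coordinates given below, so that each window reaches a little into the gene as given there. The windows are chr4:86670060-86670309 on the minus strand and chr9:122351366-122351615 on the plus strand, each written 5′ to 3′ on the strand of the gene. Capitals mark the motif as it reads on this strand.
Plin2: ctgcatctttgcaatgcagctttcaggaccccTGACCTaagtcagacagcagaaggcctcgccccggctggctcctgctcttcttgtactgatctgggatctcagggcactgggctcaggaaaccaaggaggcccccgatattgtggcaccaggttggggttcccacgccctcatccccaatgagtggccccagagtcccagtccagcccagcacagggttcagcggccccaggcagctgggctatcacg
Abhd5: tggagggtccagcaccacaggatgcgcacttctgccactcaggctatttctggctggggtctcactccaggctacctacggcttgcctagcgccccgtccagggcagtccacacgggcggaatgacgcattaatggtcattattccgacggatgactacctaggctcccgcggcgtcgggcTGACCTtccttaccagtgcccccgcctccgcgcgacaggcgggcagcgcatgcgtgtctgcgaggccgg
The motif lay from 218 to 213 bases before the start of Plin2 and from 69 to 64 bases before that of Abhd5. It was in 14.0% of the 32851 RefSeq promoter windows of this length on either strand, and in 2 of the 11 windows of these genes. The core of the hypoxia response element, ACGTG, was in 4 of the 11 windows (1 of Hilpda, 1 of Lipe and 2 of Mgll) and in 16.6% of all. The E-box CACGTG, which contains that core, was in 2 of the 11 (Mgll and Lipe) and in 6.02% of all. A sterol response element written TCACNCCAC and a CARE element written TGATGNAA, searched on both strands, were in 0 of the 11 and in 1.05% and 3.45% of all windows. These are matches of letters only.

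Plin2 encodes the perilipin that coats droplets in most tissues outside fat and is degraded when not bound to lipid. The gene (ENSMUSG00000028494), whose promoter window carries AGGTCA, lies on the minus strand of chromosome 4 from 86648386 to 86670060 in GRCm38. It had 30.8, 29.3 and 26.3 CPM in vehicle libraries 1, 2 and 4, and 104.4, 54.7 and 81.8 CPM in the PSB-KD107 libraries with these numbers. The vehicle libraries were close together, whereas the treated libraries differed among themselves by 1.91 times, with library 1 the highest and library 2 the lowest. On the log2 scale the fold change was 1.48 (SE, the standard error, 0.24, 95% interval 0.89 to 2.07), which corresponds to between 1.86 and 4.19 times. The adjusted p-value of Plin2 was 0.184 with edgeR and 1.46e-05 with DESeq2, and over all alternatives it lay between 1.26e-15 and 0.847. By p-value Plin2 ranked 53 among the genes tested, which was the highest rank of the 10. Without both libraries numbered 1 its log2 fold change was 1.30.

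Plin3 encodes a perilipin that moves between the cytosol and newly formed droplets. The gene (ENSMUSG00000024197) lies on chromosome 17 from 56277476 to 56292873. It had 50.4, 39.1 and 41.7 CPM with vehicle and 66.1, 49.4 and 71.0 CPM with PSB-KD107. The groups overlapped, because treated library 2 was just below vehicle library 1. Plin3 had a log2 fold change of 0.51 (SE 0.17, edgeR adjusted p = 0.452, DESeq2 adjusted p = 0.234). In DESeq2 it passed when PSB-KD107 library 2 was left out (adjusted p = 0.0133), and its adjusted p-value lay between 0.00896 and 0.999 over all alternatives.

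Plin4 encodes a perilipin with a long repeated amphipathic helix, abundant in fat and muscle. The gene (ENSMUSG00000002831) lies on chromosome 17 from 56100591 to 56109803. Its counts were low, at 77, 19 and 25 with vehicle and 389, 101 and 23 with PSB-KD107, or 1.96, 0.54 and 0.78 CPM against 7.73, 3.24 and 0.63 CPM. Treated libraries 1 and 2 were above all vehicle libraries, and treated library 4 was among the vehicle libraries. The treated libraries differed from each other by 12.2 times. For Plin4 the log2 fold change came to 1.82 (SE 0.94, 95% interval -0.46 to 4.09, edgeR adjusted p = 0.621). Without PSB-KD107 library 4 it was 2.32 in edgeR (adjusted p = 0.330), and DESeq2 then called it (adjusted p = 0.0451). Over all alternatives its adjusted p-value lay between 0.000746 and 1.00. Without PSB-KD107 library 1 the log2 fold change was 0.80. The exons of Plin4 share 17 bases, 0.294% of their length, with Hdgfl2 on the opposite strand, which had 21416 counts in all.

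Hilpda encodes a small droplet protein that is induced by hypoxia and inhibits Pnpla2. The gene (ENSMUSG00000043421) lies on chromosome 6 from 29272488 to 29275446. It had 5.43, 8.53 and 8.53 CPM with vehicle and 10.5, 8.79 and 8.56 CPM with PSB-KD107. Apart from both libraries numbered 1, the values of the groups were nearly equal. Hilpda had a log2 fold change of 0.31 (SE 0.23, edgeR adjusted p = 0.727), and without both libraries numbered 1 it was 0.02.

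Per kilobase of exon sequence, Plin3 was the most abundant of the 4 coat genes in each vehicle library, and Plin2 was in each PSB-KD107 library. The share of Plin2 in the summed CPM per kilobase of the 4 genes was 32.0%, 31.5% and 28.4% in vehicle libraries 1, 2 and 4, and 51.2%, 41.9% and 46.7% in the PSB-KD107 libraries. That of Plin3 was between 39.0% and 48.7% with vehicle and between 30.1% and 37.6% with PSB-KD107. The sum itself was 27.3, 26.5 and 26.4 CPM per kilobase with vehicle and 58.1, 37.2 and 49.9 with PSB-KD107. Neither share nor sum overlapped between the groups. The shares and the sum all contain Plin2, which was itself separated between the groups, so they are no separate result. The mean level of Plin3 itself was higher with PSB-KD107 (16.4 against 11.6 CPM per kilobase), although its share was lower. These shares rest on the length of all annotated exons of a gene, which can exceed that of the transcript the cells use.

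**Figure D2:**
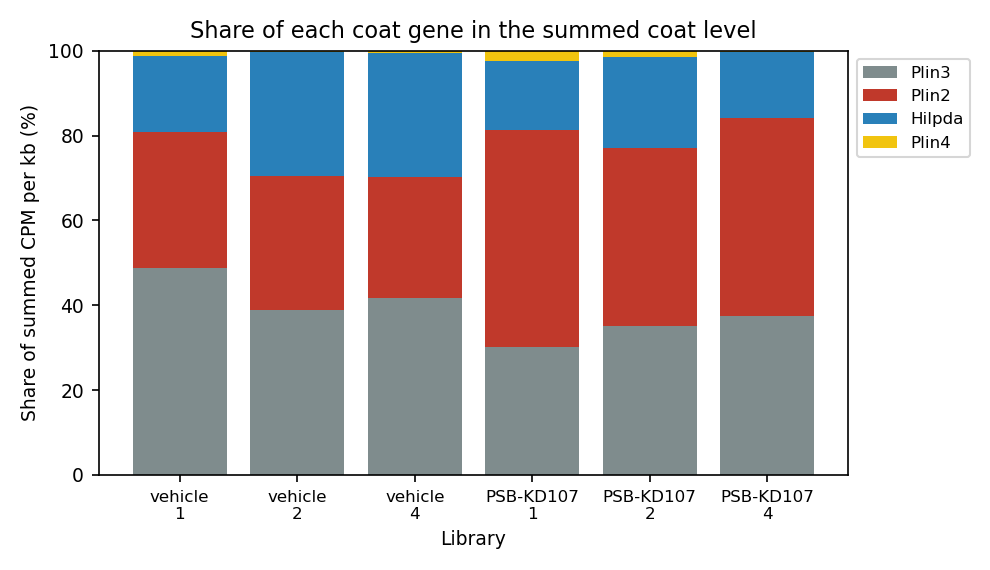
Share in percent of Plin3, Plin2, Hilpda and Plin4 in the summed CPM per kilobase of the 4 coat genes, with a stacked bar for each library. The Plin2 part lies between 28.4% and 32.0% in the vehicle libraries and between 41.9% and 51.2% in the PSB-KD107 libraries, and Plin4 is the thinnest part.

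Dgat1 and Dgat2 encode enzymes that carry out the same reaction but are unrelated in sequence. Dgat1 resides in the endoplasmic reticulum and mostly re-esterifies fatty acids taken up or released by lipolysis, whereas Dgat2 can move to droplets and is linked to newly made fatty acids. Dgat2 (ENSMUSG00000030747, chromosome 7 from 99153658 to 99182719) had 25.9, 28.6 and 24.8 CPM with vehicle and 37.3, 47.5 and 38.9 CPM with PSB-KD107. Each treated library was above each vehicle library. This gave a log2 fold change of 0.64 (SE 0.13, 95% interval 0.31 to 0.97). The adjusted p-value of Dgat2 was 0.238 with edgeR and 0.00284 with DESeq2, over all alternatives between 0.00195 and 0.903. The DESeq2 call was lost without vehicle library 4 (adjusted p = 0.110).

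Dgat1 (ENSMUSG00000022555, chromosome 15 from 76502015 to 76511953) had 22.6, 24.8 and 23.5 CPM with vehicle and 24.2, 22.9 and 17.8 CPM with PSB-KD107. Treated libraries 1 and 2 were within the vehicle range and library 4 was below it. Dgat1 had a log2 fold change of -0.13 (SE 0.15, 95% interval -0.50 to 0.24, edgeR adjusted p = 0.824).

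Within each library, the counts of a pair of genes were compared as a ratio, which does not depend on the scaling between libraries. The ratio of Dgat2 to Dgat1 was 1.15, 1.16 and 1.06 with vehicle and 1.54, 2.07 and 2.19 with PSB-KD107. The ratio was 1.71 times higher with PSB-KD107 as a geometric mean, and the groups did not overlap (two-sided exact permutation test, p = 0.1, adjusted over 4 ratios p = 0.133). The ratio of Plin2 to Plin3 was 0.610, 0.749 and 0.631 with vehicle and 1.58, 1.11 and 1.15 with PSB-KD107. It was 1.91 times higher, also without overlap and with the same exact permutation p-values. Plin2 counts were thus fewer than Plin3 counts in each vehicle library and more in each treated library. The smallest p-value of this exact permutation test with 3 libraries per group is 0.1, so that no ratio could pass a threshold of 0.05 in it.

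**Figure D3:**
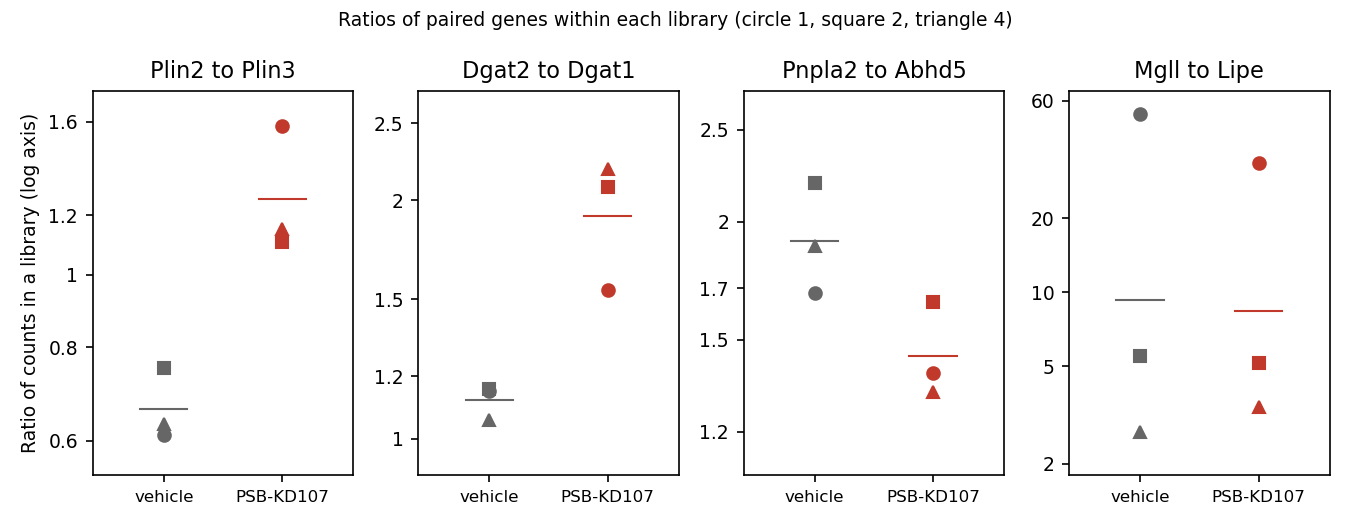
Ratio of the counts of a pair of genes in each library on log axes, with vehicle in gray, PSB-KD107 in red, lines at the geometric means, and circles, squares and triangles for libraries 1, 2 and 4. The first 3 ratios do not overlap between the groups, and the ratio of Mgll to Lipe runs from 2.71 to 53.1 among the vehicle libraries.

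Pnpla2 encodes adipose triglyceride lipase, which starts the breakdown of triglyceride. The gene (ENSMUSG00000025509) lies on chromosome 7 from 141455198 to 141460743. It had 62.6, 68.2 and 57.2 CPM with vehicle and 75.1, 76.5 and 66.3 CPM with PSB-KD107. The groups overlapped by treated library 4 and vehicle library 2. Pnpla2 had a log2 fold change of 0.21 (SE 0.11, 95% interval -0.05 to 0.48, edgeR adjusted p = 0.620, DESeq2 adjusted p = 0.569).

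Abhd5 encodes CGI-58, the protein that activates Pnpla2 and is held by perilipins until lipolysis is stimulated. The gene (ENSMUSG00000032540) lies on the plus strand of chromosome 9 from 122351608 to 122381524. It had 37.2, 31.0 and 30.3 CPM with vehicle and 54.3, 46.4 and 50.2 CPM with PSB-KD107. Each treated library was above each vehicle library, and the libraries numbered 1 were the highest of their group. Abhd5 thus had a log2 fold change of 0.61 (SE 0.12, 95% interval 0.31 to 0.92). The adjusted p-value of Abhd5 was 0.230 with edgeR and 0.00350 with DESeq2, over all alternatives between 5.66e-05 and 0.973. The DESeq2 call was lost without vehicle library 2 (adjusted p = 0.143), vehicle library 4 (0.126) or PSB-KD107 library 1 (0.0680). The ratio of Pnpla2 to Abhd5 counts was 1.68, 2.20 and 1.89 with vehicle and 1.38, 1.65 and 1.32 with PSB-KD107, or 0.756 times that with vehicle, without overlap (two-sided exact permutation test, p = 0.1, adjusted p = 0.133).

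Lipe encodes hormone-sensitive lipase, which acts mainly on diacylglycerol. The gene (ENSMUSG00000003123) lies on chromosome 7 from 25379527 to 25398710. It had 1.17, 3.61 and 3.82 CPM with vehicle and 1.61, 3.56 and 3.08 CPM with PSB-KD107. Both libraries numbered 1 were lower than the 4 others, whichever the treatment. Lipe had a log2 fold change of -0.06 (SE 0.53, 95% interval -1.36 to 1.24, edgeR adjusted p = 0.978), and its sign changed with the processing. The interval leaves room for a difference in either direction.

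Mgll encodes monoacylglycerol lipase, which releases the last fatty acid and also degrades the endocannabinoid 2-arachidonoylglycerol. The gene (ENSMUSG00000033174) lies on chromosome 6 from 88724412 to 88828360. It had 63.0, 19.9 and 10.4 CPM with vehicle and 54.3, 18.4 and 10.5 CPM with PSB-KD107. In both groups library 1 was the highest and library 4 the lowest, with 6.08 times between the highest and the lowest vehicle library and 5.16 times among the treated libraries. For Mgll the log2 fold change came to -0.16 (SE 0.84, 95% interval -2.20 to 1.88, edgeR adjusted p = 0.964). Without vehicle library 1 the log2 fold change was 0.88 and without PSB-KD107 library 1 it was -1.12. Without both libraries numbered 1 the log2 fold change of Mgll was -0.07. With the library numbers as a block over all 6 libraries it was -0.10 (SE 0.10), although the numbers were not taken as pairs. The ratio of Mgll to Lipe was 53.1, 5.49 and 2.71 with vehicle and 33.5, 5.14 and 3.40 with PSB-KD107 (two-sided exact permutation test, p = 0.9). Antisense genes share exon bases with Abhd5 (950 bases), Lipe (918 bases) and Mgll (167 bases) and had 6, 13 and 38 counts in all, or 0.063%, 2.17% and 0.529% of the counts of the gene they overlap. The library kit was directional, but whether strand was used in counting is not given in the sources used here.

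**Figure D4:**
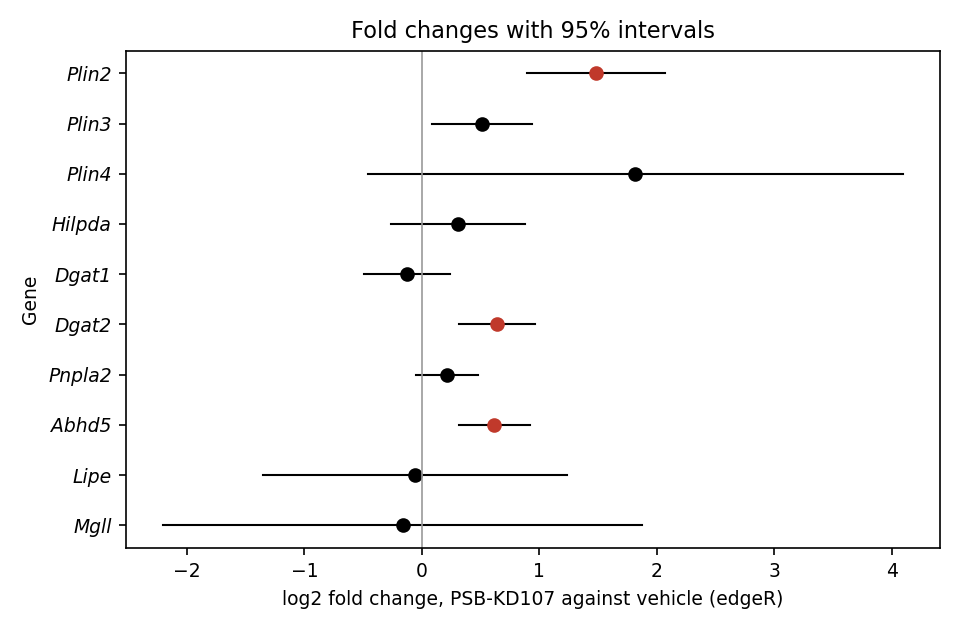
Log2 fold change of PSB-KD107 against vehicle with its 95% interval from edgeR's quasi-likelihood test for the 10 genes, in red where DESeq2 gave an adjusted p-value under 0.05. The intervals of Plin2, Plin3, Dgat2 and Abhd5 lie above 0 before adjustment over all genes, and those of Plin4, Lipe and Mgll are the widest.

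Levels per kilobase of exon sequence gave an order of the 10 genes in each group. With vehicle, Pnpla2 was first at 20.7 ± 1.82 CPM per kilobase (mean ± SD, n = 3), followed by Plin3 at 11.6 ± 1.57. Dgat2 (8.58 ± 0.64), Plin2 (8.20 ± 0.64), Dgat1 (7.73 ± 0.36), Hilpda (6.80 ± 1.62), Mgll (6.12 ± 5.52) and Abhd5 (5.52 ± 0.64) came next, and the ranges of each neighbouring pair among these 6 overlapped. Most of the 10 genes were thus not told apart by level from their neighbours in the order. Lipe (0.49 ± 0.25) and Plin4 (0.19 ± 0.13) were lowest and overlapped each other. With PSB-KD107, Plin2 was second at 22.9 ± 7.09 CPM per kilobase, after Pnpla2 at 24.1 ± 1.82, and their ranges overlapped. Plin3 (16.4 ± 2.99) and Dgat2 (13.4 ± 1.77) followed, then Abhd5 (8.45 ± 0.66), Hilpda (8.42 ± 0.98), Dgat1 (7.07 ± 1.11) and Mgll (5.46 ± 4.59). Plin4 (0.67 ± 0.62) and Lipe (0.47 ± 0.17) were again lowest. In this group the ranges of neighbours were separate only between Dgat2 and Abhd5 and between Mgll and Plin4.

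Other genes of the same steps were described from 3 lists. In triglyceride synthesis, 22 of 25 genes could be tested. Of these, 5 had higher values with an unadjusted p-value under 0.05, 0 had lower values with one, beside 6.47% and 2.93% of all genes tested. The median log2 fold change was 0.27, against 0.00 for all genes tested. The 4 besides Dgat2 were the acyl-CoA synthetases Acsl3 and Acsl5, which activate fatty acids, and Lpin1 and Lpin3, phosphatidate phosphatases that make diacylglycerol. Lpin1 had 29.4, 26.2 and 26.1 CPM with vehicle and 56.6, 37.4 and 55.5 CPM with PSB-KD107, with a log2 difference of 0.87 (SE 0.18, edgeR adjusted p = 0.238, DESeq2 adjusted p = 0.00463). Acsl3, the most abundant of the list named here, had 461.4, 464.2 and 477.3 CPM with vehicle and 671.9, 831.2 and 701.5 CPM with PSB-KD107 (edgeR adjusted p = 0.196, DESeq2 adjusted p = 1.71e-05). Lpin3 had 22.0, 30.2 and 21.3 CPM with vehicle and 45.4, 35.3 and 33.3 CPM with PSB-KD107. Acsl5 had 18.4, 16.5 and 12.0 CPM with vehicle and 31.3, 25.6 and 25.8 CPM with PSB-KD107. These 4 genes were named for their small p-values. Each had all treated libraries above all vehicle libraries, as did 5 of the 22 with Dgat2 and 9.2% of all genes tested. DESeq2 called 4 of the 22 (Acsl3, Lpin1, Acsl5 and Dgat2), all higher, beside 2.46% of all genes tested.

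Of 21 droplet protein genes in the table, 16 could be tested, of which 2 were higher (Plin2 and Plin3) and 1 lower (Cav1) at an unadjusted p-value under 0.05, beside 6.47% and 2.93% of all genes tested. The median log2 fold change was 0.15, against 0.00 for all genes tested. Cav1 encodes caveolin-1, which forms caveolae of the plasma membrane and is also found on droplets. It had 28.2, 15.2 and 11.2 CPM with vehicle and 2.90, 4.97 and 0.83 CPM with PSB-KD107, with a log2 difference of -2.65 (SE 0.69, edgeR adjusted p = 0.326, DESeq2 adjusted p = 0.00292). G0s2, an inhibitor of Pnpla2, had 7.91, 6.50 and 9.21 CPM with vehicle and 9.48, 9.40 and 11.6 CPM with PSB-KD107, without overlap (edgeR unadjusted p = 0.112). Hsd17b11, a droplet dehydrogenase, differed by 0.49 on the log2 scale (SE 0.23), and Bscl2, which encodes seipin of the droplet assembly site, by -0.31 (SE 0.25). Plin1, Plin5, Cideb, Cidec and Hsd17b13 were not tested and had at most 0.358 CPM.

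Of 20 lipases and cofactors, 16 could be tested. Only Abhd5 had an unadjusted p-value under 0.05, so that 1 of 16 was higher and 0 lower, near the 6.47% and 2.93% of all genes tested. The median log2 fold change was 0.05, against 0.00 for all genes tested. Outside the 10 genes, the list genes with the smallest p-values were Ddhd1, Pnpla3, Abhd6 and Daglb, with log2 differences of 0.48, 0.95, 0.56 and 0.17 (SE 0.31, 0.64, 0.45 and 0.16), and their groups overlapped. Lipa, the lysosomal acid lipase, had 43.8 to 44.0 CPM with vehicle and 44.7 to 47.1 CPM with PSB-KD107, a log2 difference of 0.05 (SE 0.08). It is named here after its values were seen. Lipg, Lipc, Ces1d and Ces1f had too few counts to be tested. Lipg, the endothelial lipase, had 5, 1 and 0 counts with vehicle and 16, 6 and 32 with PSB-KD107. Lipc, the hepatic lipase, had 5, 2 and 3 counts with vehicle and 11, 7 and 5 with PSB-KD107. Neither gene overlapped between the groups in CPM, but on few counts. For Lipc, vehicle library 1 and PSB-KD107 library 4 both had 5 counts, and only the scaling to CPM separates them (0.128 and 0.138 CPM). Of the genes tested, which leave out both, 9.2% lay apart with higher values. Ces1d and Ces1f had 0 counts in every library.

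**Figure D5:**
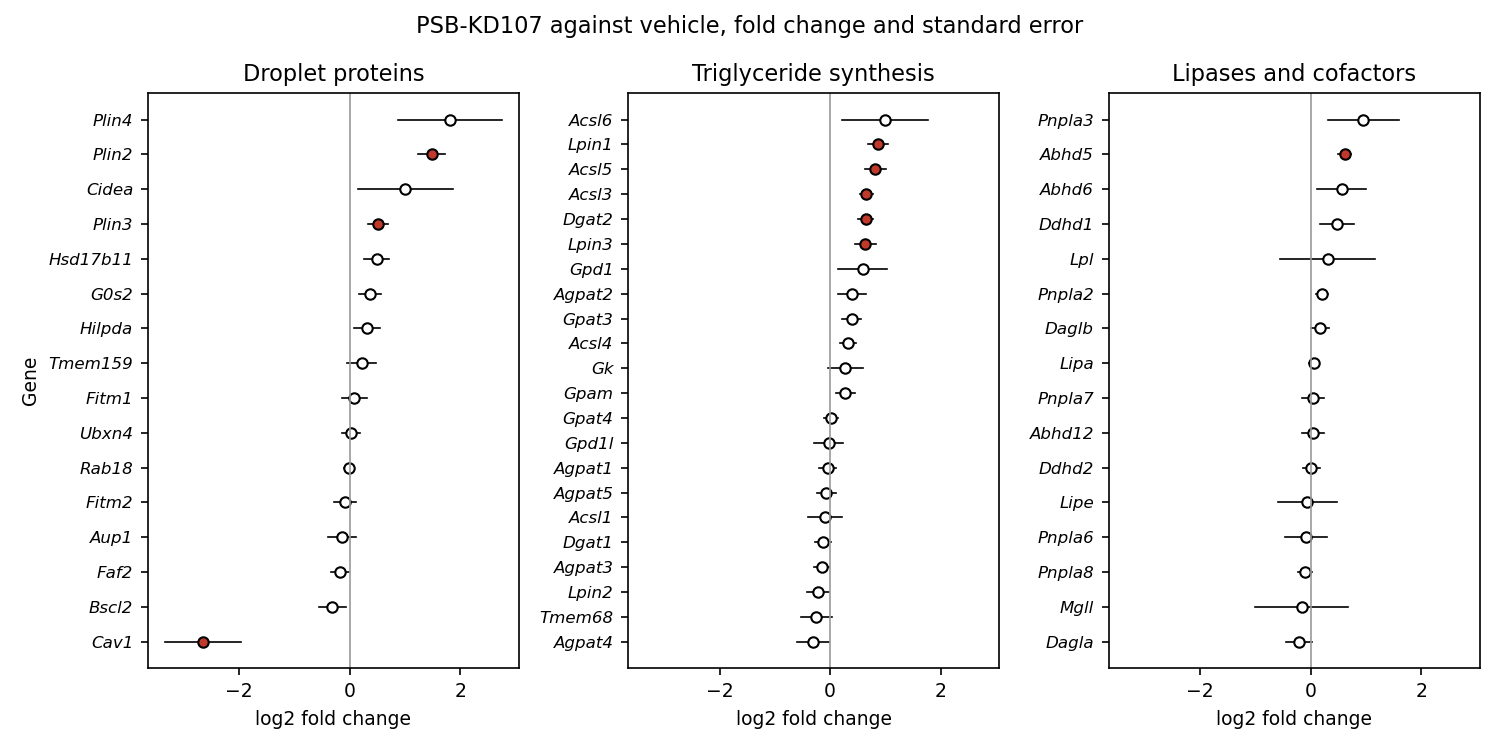
Log2 fold change of PSB-KD107 against vehicle with its standard error for each gene tested of the lists of droplet proteins, triglyceride synthesis and lipases, in red where the unadjusted p-value was under 0.05. Red points to the right of 0 number 2, 5 and 1, and Cav1 is the red point to the left.

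The genes whose log2 CPM followed Plin2 most closely over the 6 libraries, among 8910 genes with a mean of at least 10 CPM, were Mrpl55, Eif1a and Fam63b, each with a Pearson's r of 0.99. All 6 points share their libraries and groups, so that the coefficients describe these libraries only. Mrpl55, a mitochondrial ribosomal protein, had 16.1 to 16.4 CPM with vehicle and 19.0 to 22.3 CPM with PSB-KD107. Fam63b had 39.6 to 47.7 CPM with vehicle and 62.5 to 89.6 CPM with PSB-KD107. Eif1a, a translation initiation factor, had 81.5 to 90.4 CPM with vehicle and 110.2 to 130.0 CPM with PSB-KD107.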

How the data were processed

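Poly(A) RNA was sequenced as paired-end reads, and the authors aligned them with STAR version 2.3.0 to mouse genome mm10. They deposited raw counts per gene, without normalization. The counting program, its annotation and strand setting are not given in the sources used here. Column names gave the group of each library. Those numbered 4 match no single sample record.

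Coordinates and exon lengths came from GENCODE M21 (GRCm38), and Mymk and Gpat3 were matched by an older symbol. Analyses used R 4.3.3, edgeR 4.0.16, limma 3.58.1, DESeq2 1.42.0 and Python 3.11.15. Genes were filtered with filterByExpr, scaled by TMM and compared by edgeR's quasi-likelihood test with Benjamini-Hochberg adjustment over all genes. Intervals are at 95%, from the t distribution of the fit. Ratios had 0.5 added to each count. CPM per kilobase used the union of exons. The scripts were tested on simulated data.

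The genes and lists were chosen with earlier results of these data known. Named genes were the 10, the 4 other genes with the smallest p-values in each list and the 3 genes most like Plin2. Alternatives were RLE factors, no filter, a mean FPKM of at least 1, DESeq2, limma-voom, a robust fit, a replicate block and each library left out. Without both libraries numbered 1, and DESeq2 on all genes with a count, were added after seeing the data.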

Additional observations from a re-analysis of the deposited data

How the results depend on the processing

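With no filter on low counts, edgeR called 7 genes higher and 1 lower of all, and 0 of the 10. DESeq2 called 349 higher and 133 lower (3 of the 10), on all genes with a count 311 and 99 (3 of the 10), and with a replicate block by the table's numbers 418 and 215 (3 of the 10). With each library left out in turn DESeq2 called between 140 and 517 higher and 38 and 299 lower, and between 1 and 4 of the 10, with Plin2 in all 6 fits, whereas edgeR called 0 each time. RLE factors, limma-voom, the robust fit, the FPKM filter (which left out Plin4 and Lipe) and the fit without both libraries numbered 1 called 0 genes.

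Deviations from the group means correlated over 14165 genes at 0.63 between both libraries numbered 1, 0.50 for number 2 and -0.13 for number 4. Vehicle library 4 correlated best with PSB-KD107 library 2 (0.64), and the numbers were not taken as pairs. Within a group the deviations of a gene sum to 0, so these correlations depend on each other and cannot decide whether the numbers are pairs. The replicate block on libraries 1 and 2 called 1368 higher and 1214 lower, 5 of the 10 (Plin2, Plin3, Plin4, Dgat2 and Abhd5), with 1 residual degree of freedom, and these 4 libraries without the block gave 0. The replicate block over 6 libraries called 0. At an unadjusted p-value under 0.05 the block on 4 libraries gave 7 of the 10, 8 droplet protein, 9 triglyceride synthesis and 7 lipase genes, beside 31.3% of all genes tested in that fit, against 9.4% in the reported fit and between 4.69% and 16.9% in the other alternatives. The droplet protein count was 1 without both libraries numbered 1 and between 2 and 5 with a library left out, and that of triglyceride synthesis between 4 and 8. The lipase count was 2 with no filter, with DESeq2 on all genes and with the block in DESeq2, 4 with the block over 6 libraries, and between 1 and 4 with a library left out.

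Lipe and Mgll were the genes of the 10 that changed sign. The log2 fold change of Lipe was 0.018 in limma-voom, 0.19 with the block on 4 libraries, 0.11 on these without it, 0.036 with the block over 6 libraries and 0.019 with it in DESeq2, and between -0.45 and 0.21 with a library left out. With a library left out, that of Mgll lay between -1.12 and 0.88 and the difference in the log2 ratio of Mgll to Lipe between -1.14 and 1.12. The other 3 ratios moved by less than 1 SD between libraries, also with 2 counts added. The cause of these changes was not tested. Leave-one-out fits have 2 libraries in a group. At these depths Plin4 and Lipe rest on between 19 and 389 counts per library.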
